A study of Brassica napus with 3 samples.

Results

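Chromosomes A01 and C01 of rapeseed (Brassica napus) together held 5584 of the 62949 peaks at which the transcription factor BnaC3.LFY retained genomic DNA, 2144 on A01 and 3440 on C01. They were taken from the deposited peak list by the name of their chromosome alone, so no measured value chose them. The method, DAP-seq (DNA affinity purification sequencing), lets a transcription factor made outside the plant capture fragments of naked genomic DNA, which are then sequenced. The study comprised 2 DAP libraries of BnaC3.LFY and 1 input library, all on genomic DNA whose tissue the labels give as shoot apices and the protocol as inflorescence, with no genotype, treatment or age named. The title of the series speaks of ChIP-Seq, whereas the sample titles name DAP, which is followed here. The authors brought the libraries together in 1 list, so no value below has an error between replicates, and the labels do not say whether the DAP libraries came from separate plants or protein preparations.

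LEAFY (LFY) is the plant transcription factor that gives young meristems their floral identity, in Arabidopsis by switching on floral organ identity genes such as APETALA1 and AGAMOUS. Because DAP-seq offers the factor DNA without nucleosomes, its peaks record affinity for sequence (with the DNA methylation that the extracted DNA keeps) rather than occupancy in living cells. Rapeseed is an allotetraploid that carries an A subgenome from a Brassica rapa ancestor and a C subgenome from a Brassica oleracea ancestor, and A01 and C01 are homoeologues, that is, chromosomes that descend from the same ancestral chromosome and still share much of their gene order. Plant chromosomes generally carry their genes mostly in the arms, whereas the DNA around the centromere is rich in repeats. The homoeology of the pair is background from knowledge of the species: the list holds intervals and no sequence or gene, so the label could be checked only by the names of the chromosomes and by the shape of the peak profiles given below.

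Peaks lay at nearly the same mean density on the homoeologues, although C01 is much the longer. A01 held 63.0 peaks per Mb over a span of 34.0 Mb and C01 held 62.0 per Mb over 55.5 Mb, where the span runs to the end of the last peak because chromosome lengths were not at hand. The ratio of A01 to C01 was 1.02, with a 95% interval of 0.964 to 1.07 from the exact binomial distribution of the counts. Such intervals treat peaks as independent and cover counting error only. The peaks did not overlap each other and covered 2.51% of the A01 span and 2.45% of the C01 span. Among the subgenomes the places of the homoeologues differed: A01 ranked 6th of the 10 A chromosomes in density, with 53.9 (A10) to 79.8 (A09) per Mb on the others, while C01 was the lowest of the 9 C chromosomes, with 64.8 (C08) to 70.4 (C07) per Mb on the others.

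**Figure D1:**
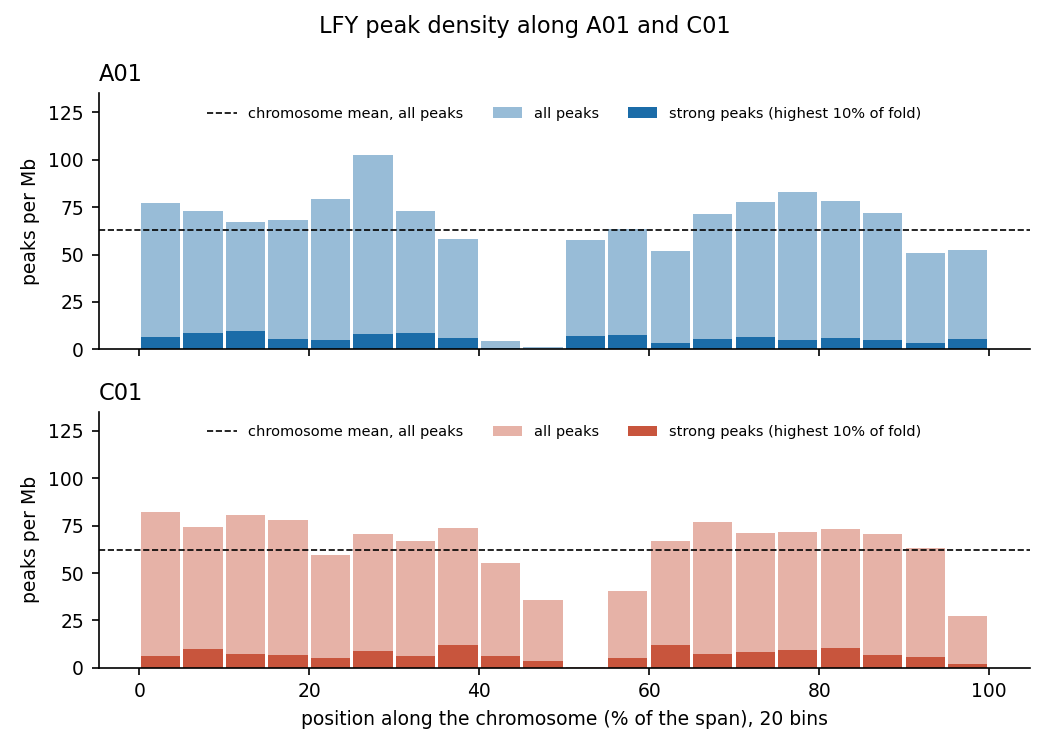
Peaks per Mb in 20 bins of equal length along A01 (top) and C01 (bottom), with position as a percentage of the span. Pale bars are all peaks, dark bars the strong peaks (fold enrichment of 16.1 or more), and the dashed line is the chromosome mean of 63.0 per Mb on A01 and 62.0 per Mb on C01. Each chromosome has a near-empty part close to its centre, over 2 bins on A01 and 1 bin on C01.

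Along each chromosome the density was fairly even through most of both arms and collapsed near the centre. On A01 the bin from 40 to 45% of the span held 4.12 peaks per Mb (7 peaks) and the bin from 45 to 50% held 1.18 per Mb (2 peaks). The bin of C01 from 50 to 55% held 0.360 per Mb, a single peak. These were the only bins of A01 and C01 below 25% of their chromosome's mean. The A01 bins next to the trough held 58.2 per Mb on its left and 57.6 per Mb on its right. The C01 bins next to its trough held 35.7 and 40.3 per Mb, and both reach into the near-empty stretch whose exact limits are given below. The fullest bin of A01, from 25 to 30%, held 102 peaks per Mb, 1.62 times the mean of A01. The fullest bin of C01 was the first, with 82.1 per Mb or 1.33 times its mean. In the bin from 25 to 30% the homoeologues differed by 31.7 per Mb, as C01 held 70.6 per Mb there. In 8 of the 20 bins they lay within 10 peaks per Mb of each other, and A01 was the denser in 10 bins and C01 in 10.

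In bins of 1 Mb the fullest and emptiest stretches could be placed more closely. On A01 the fullest were from 9 to 10 Mb with 108 peaks and from 10 to 11 Mb with 89, both in the left arm. The bins from 17 to 18, 24 to 25 and 28 to 29 Mb followed with 85 each, the first of them at the right edge of the trough and the others further out in the right arm. On C01 the fullest were from 9 to 10 Mb with 95 peaks and from 1 to 2 Mb with 93, followed by those from 6 to 7 and from 17 to 18 Mb with 86 each, all in the left arm. The emptiest bins of A01 were from 14 to 15 Mb with 4 peaks, from 15 to 16 Mb with 2 and from 16 to 17 Mb with 0. On C01 the bins from 27 to 28, 29 to 30 and 30 to 31 Mb each held 0. Apart from these troughs the chromosomes were filled fairly evenly: 26 of 34 full bins on A01 and 46 of 55 on C01 held 50 peaks or more, with a median of 70 peaks on A01 and 68 on C01.

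The ends were denser than the middle on both homoeologues, and by a similar factor. The outer 10% at each end of A01 held 430 peaks, or 63.2 per Mb, against 215 peaks or 31.6 per Mb in its central 20%, a ratio of 2.0 (95% interval 1.69 to 2.37). The ends of C01 held 686 peaks or 61.8 per Mb against 366 or 33 per Mb in its middle, a ratio of 1.87 (1.65 to 2.13). These ratios were the highest of their subgenomes, where the other A chromosomes ran from 0.596 (A03) to 1.39 (A10) and the other C chromosomes from 0.682 (C06) to 1.69 (C09). The centre of the longest sparse stretch, defined below, lay in the central 20% on A01 and C01 but not on every other chromosome. It lay at 82.8% of the span on A03 and 3.32% on C06, against 41.9% on A10 and 52.4% on C09. A central position did not always go with a high ratio. The stretch was also central on A06 (46.7%, ratio 0.951), A09 (50.5%, 0.820), A02 (58.3%, 1.12) and C05 (54.8%, 1.33). How far the ranks rest on this position was not tested. The middle includes the trough, and the ratio pools the left and right ends of a chromosome. It therefore cannot show whether density changed steadily along the arms, which was not tested. With the near-empty stretch described below left out of the middle, a choice made after seeing the data, the ratio was 1.01 on A01 (0.851 to 1.19) and 1.09 on C01 (0.955 to 1.24). The parts between ends and middle were in fact fuller than the ends, with 73.5 per Mb on A01 and 71.7 per Mb on C01, so the ends held 0.861 times their density on A01 (0.771 to 0.959) and 0.862 times on C01 (0.791 to 0.939).

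The ends of each chromosome were unlike each other, in the same direction on both homoeologues as assembled. On A01 the left end held 75 peaks per Mb and the right end 51.5, a ratio of 1.46 (95% interval 1.2 to 1.78). On C01 the left end held 78.3 per Mb and the right end 45.2, a ratio of 1.73 (1.48 to 2.03). Each was the highest ratio of left to right in its subgenome, where the others ran from 0.840 to 1.38 among the A and from 0.483 to 1.21 among the C chromosomes. The ends of C01 were not the most unequal of the C chromosomes, though. Those of C06 (35.2 per Mb left, 72.9 right) and C07 (44.7 and 83.0) differed more, in the other direction. The right end of C01 was sparse over its last 3 Mb only, which held 14, 26 and 40 peaks going outwards, while the 2 Mb further in held 56 and 75. On A01 the last 4 Mb held 45, 59, 55 and 49 peaks going outwards and the Mb before them 83. The first 3 Mb of A01 held 83, 76 and 72 peaks from the tip inwards, and those of C01 76, 93 and 83. The ends of C01 did not differ in strength beyond counting error, measured as fold enrichment, the authors' ratio of DAP reads to the local background at a peak. The median fold was 6.05 (95% interval 5.70 to 6.42) at its left end and 5.88 (5.49 to 6.46) at its right end. On A01 it was 5.73 (5.37 to 6.14) at the left end and 6.35 (5.61 to 7.16) at the right end. By value this is the other direction, and these intervals overlap too.

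**Figure D2:**
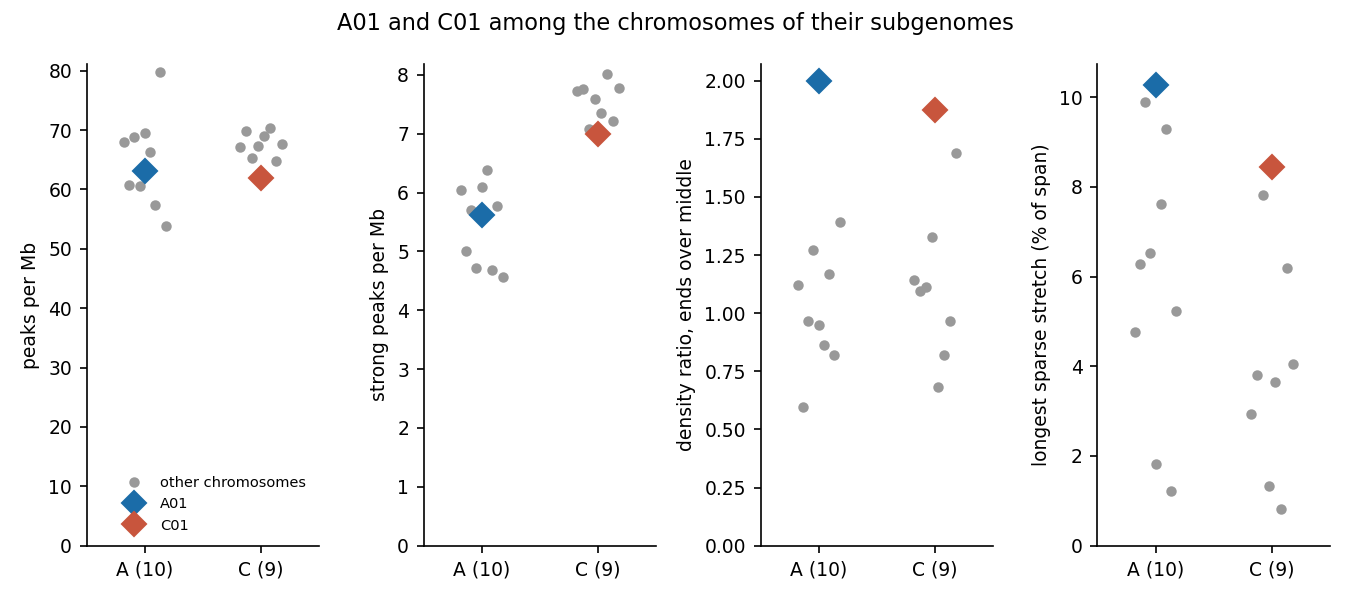
Values of A01 (blue diamond) and C01 (red diamond) among the other chromosomes of their subgenomes (grey points, 9 A and 8 C). The panels show peaks per Mb, strong peaks per Mb, the density of the ends over that of the middle, and the longest sparse stretch as a percentage of the span. In the last 2 panels A01 and C01 are the highest of their subgenomes, at 2.0 and 1.87 and at 10.3% and 8.44%. The last panel uses a minimum interval of 100 kb, chosen after seeing the data.

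The trough of A01 was a chain of peak-free intervals with isolated peaks between them, whereas that of C01 was nearly empty. A sparse stretch was defined, after seeing the data, as the longest run of neighbouring peak-free intervals of at least 100 kb each. On A01 it ran from 13653737 to 17142988 (Westar v0 assembly, positions counted from 1), 3.49 Mb or 10.3% of the span, with 8 intervals and 7 peaks. On C01 it ran from 26471084 to 31158821, 4.69 Mb or 8.44% of the span, with 2 intervals and 1 peak. As shares of the span these were the longest sparse stretches of their subgenomes, with up to 9.89% on the other A chromosomes (A04) and up to 7.82% on the other C chromosomes (C04). In Mb A01 was still the longest of its subgenome, but C04 with 5.63 Mb exceeded C01. By the longest single peak-free interval A01 was only 6th of 10 and C01 2nd of 9. Ranks at other minimum lengths were not examined. The stretches of A01 and C01 began at 40.1% and 47.7% of the span and had their centres at 45.3% and 51.9%, so in relative position they overlapped only in part. With a minimum of 200 kb in place of 100 kb the stretch of A01 began at 14633931 and was 2.51 Mb long, and that of C01 stayed as it was. The part of unresolved assembly sequence and of repeats to which reads cannot be assigned was not tested.

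The 7 peaks inside the A01 stretch reached from weak to just above the upper quartile of fold on A01, which was 9.03. Their fold ran from 4.67 to 9.48 with a median of 5.32. The strongest, from 15907869 to 15908194, had a fold of 9.48 and bordered the longest interval. The second, from 14465028 to 14465495, had a fold of 7.93 and was with 468 bp the widest of the 7. The lone peak of the C01 stretch, from 28829637 to 28829928, had a fold of 5.30 and a -log10 q, the significance that the peak caller gave it, of 7.13. None of these 8 peaks was strong in the sense used below. Without them and the stretches themselves the density was 70.0 peaks per Mb on A01 and 67.6 per Mb on C01, a ratio of 1.04 (95% interval 0.980 to 1.09), so leaving out the troughs did not move the homoeologues apart beyond counting error.

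The flanks of the sparse stretches were well filled except to the left of A01, and the right flank of A01 was crowded. The Mb to the right of the A01 stretch held 86 peaks, 13 of them at least 800 bp wide, against 45 peaks with 2 that broad in the Mb to its left. On C01 the Mb to the left of the stretch held 74 peaks with 6 broad ones, and the Mb to the right 60 peaks with 4. In the A01 right flank 18 pairs of neighbouring peaks lay with their edges within 500 bp, against 1 pair in its left flank and 0 in either flank of C01. Strong peaks numbered 10 and 6 in the right and left flanks of A01 and 8 and 10 in those of C01. As shares these were 11.6 and 13.3% of the flank peaks on A01 and 13.3 and 13.5% on C01. By definition 10% of the whole list is strong, and the shares of the chromosomes were 8.91% on A01 and 11.3% on C01.

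Peak-free intervals were otherwise distributed alike on the homoeologues up to a length of 50 kb. The median distance between neighbouring peaks was 8181 bp on A01 (quartiles 3174 and 17700 bp) and 9028 bp on C01 (3236 and 19079 bp). The median of C01 was the longest of the 9 C chromosomes, where the others ran from 8126 bp (C03) to 8850 bp (C05). Intervals of at least 50 kb numbered 98 on A01 (2.88 per Mb) and 146 on C01 (2.63 per Mb). From 100 kb the homoeologues parted, with 20 intervals on A01 (0.588 per Mb) and 16 on C01 (0.288 per Mb), and from 200 kb A01 had 9 and C01 3. Outside the sparse stretches there were by count 12 intervals of at least 100 kb on A01 and 14 on C01. The parts on either side measured 13.7 and 16.9 Mb on A01 and 26.5 and 24.4 Mb on C01, so per Mb A01 still held more. Above 500 kb the order turned, with 1 interval on A01 and 3 on C01. Intervals of at least 100 kb took up 16.2% of the span of A01 and 12.3% of that of C01. The C01 share was the highest of the C chromosomes, where the others ran from 4.99% (C07) to 11.9% (C08), while A01 was 5th of 10 among the A chromosomes.

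**Figure D3:**
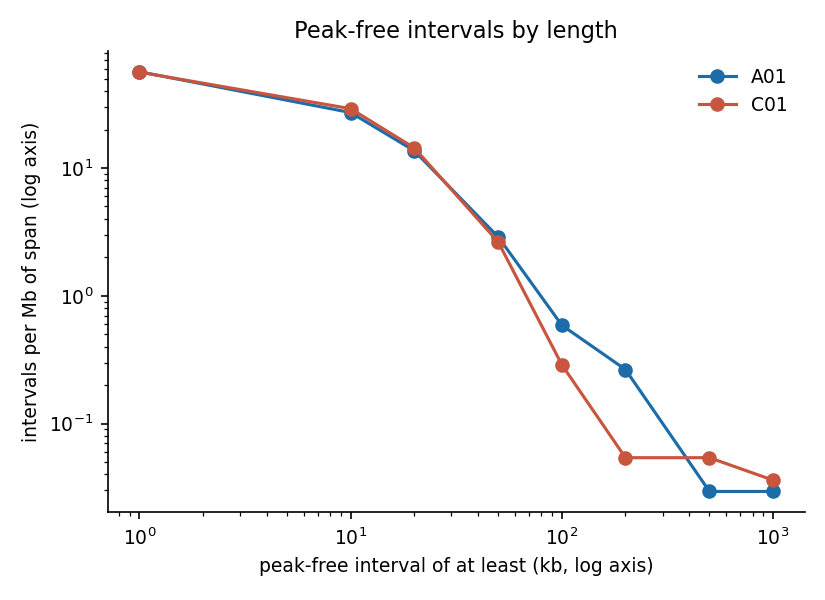
Number of peak-free intervals per Mb of span that reach a given length, for A01 (blue) and C01 (red), with both axes logarithmic. The curves run together to 50 kb (2.88 and 2.63 per Mb), A01 lies above C01 at 100 kb (0.588 and 0.288 per Mb) and 200 kb, and C01 lies above A01 from 500 kb.

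The 5 longest intervals of A01 all belonged to its sparse stretch. The longest ran from 15908195 to 17142988 and was 1.23 Mb long. Those next in length were 482 kb (15426184 to 15907868), 449 kb (14976794 to 15425867), 343 kb (14633931 to 14976551) and 337 kb (13653737 to 13990902). All but the last of these 5 follow each other directly and lengthen towards the right edge, where the crowded flank begins. On C01 the longest pair, 2.36 Mb from 26471084 to 28829636 and 2.33 Mb from 28829929 to 31158821, flanked the lone peak. The rest lay near the right tip of C01 and were far shorter, at 564 kb (53085334 to 53649215), 179 kb (54500776 to 54679649) and 136 kb (54819686 to 54955294). The right tip was thus the only other place on C01 with a peak-free interval of 200 kb or more, while A01 had 3 of that length outside its sparse stretch.

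Strong peaks were sparser on A01 than on C01, although peaks as a whole were not. Strong is used here for a fold of 16.1 or more, the limit of the top 10% of the whole list. The members on either side of that limit had folds of 16.105 and 16.091. A01 held 191 strong peaks, 8.91% of its peaks (95% Wilson interval 7.78 to 10.2%), and C01 held 388, or 11.3% (10.3 to 12.4%). Per Mb these were 5.62 on A01 and 6.99 on C01, a ratio of 0.804 (0.672 to 0.958). Peaks of lower fold stood at 57.4 per Mb on A01 and 55.0 on C01, a ratio of 1.04 (0.987 to 1.11). A lower density of strong peaks on the A than on the C chromosomes is a pattern of the whole list, to which this pair belongs, and is not separate support for it. Within that pattern C01 was the lowest of the C chromosomes in strong peaks per Mb, with 7.09 to 8.01 on the others, and A01 was 6th of 10 among the A chromosomes.

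By value, the difference in strong peaks was larger in the right arms than in the left. To the right of the sparse stretch A01 held 92 strong peaks (5.46 per Mb) and C01 186 (7.63 per Mb), a ratio of 0.715 (95% interval 0.550 to 0.922). To the left A01 held 99 (7.25 per Mb) and C01 202 (7.63 per Mb), a ratio of 0.950 (0.739 to 1.21). The intervals of the arms overlap, and the difference between arms was not tested. All peaks together stood at 74.6 per Mb in the left arm of A01 and 71.1 in that of C01, and at 66.3 and 63.9 per Mb in the right arms, so by value the right arm was the less dense on both homoeologues. The longest runs without a strong peak spanned the troughs, 3.63 Mb on A01 with 13 weaker peaks inside and 4.84 Mb on C01 with 10. The second longest lay near the right ends, 1.07 Mb on A01 with 46 weaker peaks and 1.75 Mb on C01 with 33.

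By class of fold, the ratio of A01 to C01 was by value above 1 in the classes below a fold of 8 and below 1 in those above. Peaks with a fold of 4 to 6 were the largest class on both, with 24.1 per Mb on A01 and 21.8 per Mb on C01, a ratio of 1.11 (95% interval 1.01 to 1.21). Peaks with a fold of 30 or more stood at 0.970 per Mb on A01 (33 peaks) and 1.53 per Mb on C01 (85 peaks), a ratio of 0.634 (0.411 to 0.958). In the other 6 of 8 classes the interval included 1, and the intervals are not adjusted for the number of classes. The median fold was 5.98 on A01 (95% interval 5.86 to 6.14) and 6.21 on C01 (6.10 to 6.33). A -log10 q of at least 10 was reached by 49.1% of the peaks on A01 (47.0 to 51.2%) and 53.0% on C01 (51.3 to 54.7%), against 50.6% of the whole list.

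**Figure D4:**
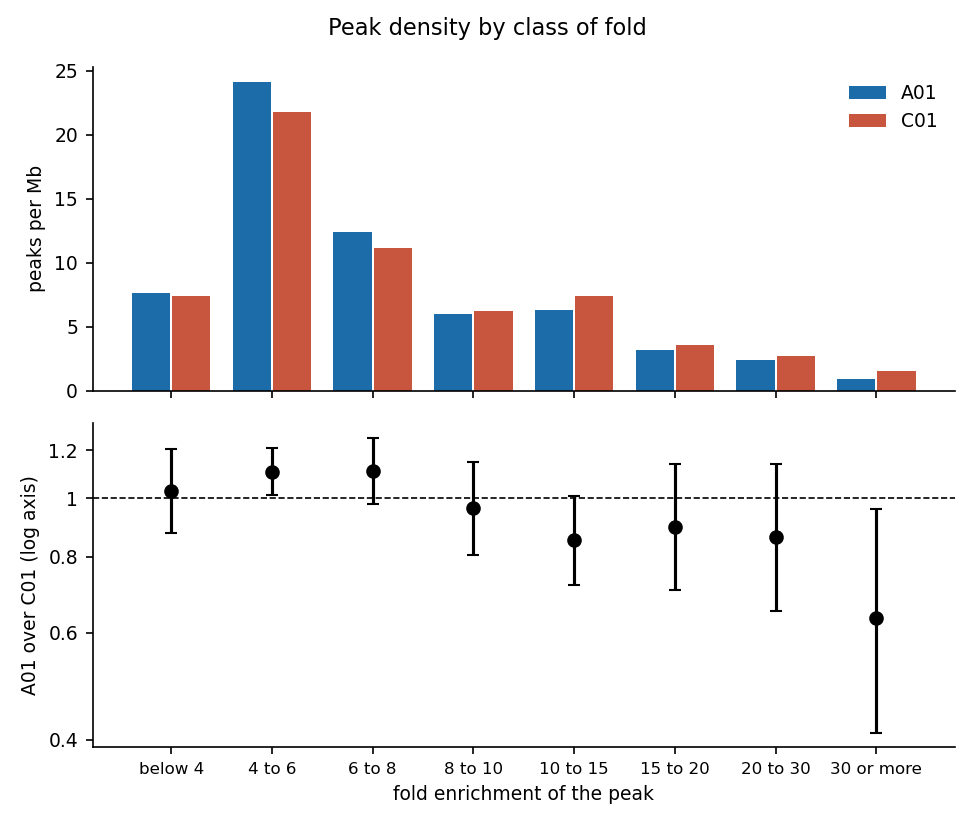
Top, peaks per Mb in 8 classes of fold enrichment on A01 (blue) and C01 (red). Bottom, the ratio of A01 to C01 per class with its 95% interval from counting error, on a logarithmic axis with a dashed line at 1. The ratio is 1.11 in the class from 4 to 6 and 0.634 in the class of 30 or more.

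The 10 strongest peaks of each homoeologue were scattered over both arms. On A01 the strongest, from 18159500 to 18160079, had a fold of 59.5, the 54th highest on all chromosomes, and a -log10 q of 251. Only 5186 bp to its left, from 18153755 to 18154313, lay the seventh of A01, with a fold of 42.9. The second, from 28871809 to 28872467, had a fold of 58.4 and with 331 the highest -log10 q of the 10. Folds of 53.1 (10983867 to 10984459), 53.0 (19300903 to 19302010), 49.7 (8627764 to 8628354) and 45.1 (1777834 to 1778462) followed. The other folds were 39.4 (21044612 to 21045276), 39.3 (30364344 to 30364893) and 39.2 (6177488 to 6177977). Of the 10, 4 lay in the left and 6 in the right arm, and the strongest began about 1 Mb beyond the sparse stretch.

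C01 carried higher maxima than A01. Its strongest peak, from 46784640 to 46785190, had a fold of 65.1, the 26th highest on all chromosomes. Next came folds of 63.5 (33625337 to 33625994), 59.9 (34819526 to 34820096) and 59.2 (45556563 to 45557253), all in the right arm. A fold of 56.0 was found from 25644551 to 25645504, inside the last Mb before the sparse stretch. The remaining folds were 53.7 (7400593 to 7401292), 52.1 (119108 to 119697, close to the left tip), 51.9 (40986193 to 40986869), 49.8 (20103133 to 20103769) and 49.4 (9167205 to 9167849). Its 10 strongest were split evenly, with 5 in each arm. Even so, the maximum of C01 was the lowest among the C chromosomes, where the others reached 65.9 (C05) to 81.8 (C06). The maximum of A01 was 9th of 10 among the A chromosomes, where the others reached 56.2 (A04) to 74.2 (A06). Which genes lie at these sites was not analysed here, since the gene table at hand describes another assembly.

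Peak widths were almost the same on the homoeologues. The median was 362 bp on A01 (95% interval 356 to 368; quartiles 292 and 446 bp) and 366 bp on C01 (360 to 370; quartiles 296 and 452 bp). Width followed strength alike on both: below a fold of 4 the median was 288 bp on A01 and 285 bp on C01, and at a fold of 30 or more it was 578 bp on A01 and 571 bp on C01. Over peaks, the rank correlation of width with fold was 0.66 on A01 (2144 peaks) and 0.68 on C01 (3440 peaks), as a description of values that come from the same reads.

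Broad peaks of at least 800 bp made up 2.66% of the peaks of A01 (57 peaks, 95% Wilson interval 2.06 to 3.43%) and 1.92% of those of C01 (66 peaks, 1.51 to 2.43%), against 3.17% of the whole list. The share of A01 was the 4th highest of the 10 A chromosomes, where the others ran from 1.12% (A10) to 9.04% (A09) with a median of 2.29%. The share of C01 was the lowest of the C chromosomes, where the others ran from 2.0% (C04) to 2.63% (C09). The stretch of A01 from 9 to 11 Mb held 16 and that from 17 to 18 Mb held 13 of its 57 broad peaks. On C01 the stretch from 31 to 33 Mb held 7 and that from 9 to 11 Mb held 6 of its 66 broad peaks, and the Mb to the left of its sparse stretch held 6. The most in any 1 Mb bin counted from the start of the chromosome was 13 on A01 and 4 on C01. The stretches were picked after their values were seen, and the difference in spacing was not tested. On A01, windows of 100 kb with 15 or more peaks held 151 peaks, of which 11.3% were broad (7.15 to 17.3%), against 2.01% (1.48 to 2.72%) in its other windows. The broad peaks were not spread over all the crowded windows. Those starting at 9700001, 10000001, 17300001 and 17500001, within the stretches named above, held 2, 5, 6 and 3. Those starting at 25700001, 26200001, 28500001 and 29900001 held 1, 0, 0 and 0. The fullest window with 15 or more peaks on A01, from 17300001 to 17400000, held 28 peaks, 6 of them broad and 4 strong. A01 had 8 such windows and C01 3, and in those of C01 2 of 52 peaks were broad.

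None of the 5 widest peaks of either homoeologue was among its 10 strongest. The widest of A01, from 17387114 to 17389021, measured 1908 bp at a fold of 20.5 and lay in the crowded right flank of the sparse stretch. It was followed by peaks of 1756 bp (19275670 to 19277425, fold 34.5), 1692 bp (17754620 to 17756311, fold 20.2), 1653 bp (10063335 to 10064987, fold 11.9) and 1618 bp (13336138 to 13337755, fold 6.97). The last of these lay in the left flank of the sparse stretch and was the weakest of the 5. On C01 the widest, from 23789281 to 23791731, measured 2451 bp at a fold of 44.6, and the next, from 23785698 to 23787237, 1540 bp at a fold of 38. Only 2043 bp separate this pair. The others of C01 measured 1425 bp (6989087 to 6990511, fold 22.1), 1341 bp (15598607 to 15599947, fold 13.2) and 1303 bp (48377043 to 48378345, fold 11.5).

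How far the profiles of the homoeologues ran together was measured by Pearson's r between their peak counts in the 20 relative bins. It was 0.44 with both read as assembled, and the rank correlation was 0.46. The points are bins of unequal length in base pairs (1.70 Mb on A01 and 2.78 Mb on C01) from the same libraries, so r is given as a description and without a p. Among the 9 C chromosomes, C01 was the one whose profile was most like that of A01, ahead of C09 with 0.31, while the median of the other eight was 0.11. Among the 10 A chromosomes, A01 was the most like C01, ahead of A05 with 0.25. Of all 90 pairs of an A and a C chromosome, A01 and C01 ranked 10th, so the profiles of several other pairs were closer, up to 0.85 for A07 and C08. Of the other chromosomes with the same number, A02 and C02 had 0.78, A04 and C04 0.69, A07 and C07 0.44 and A08 and C08 0.43. Lower values were found for A09 and C09 (0.30), A06 and C06 (0.17), A05 and C05 (0.11) and A03 and C03 (0.10). By rank correlation the order differed. In the same sequence these pairs had 0.33, 0.38, 0.32, 0.24, 0.29, 0.40, 0.009 and 0.13, all below the 0.46 of A01 and C01.

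The value changed with the direction of reading, and leaving out the near-empty bins changed it far more with C01 reversed than as assembled. With C01 reversed, r was 0.58, as the A01 trough from 40 to 50% then met the C01 trough from 45 to 50%, but C09 (0.66) and C05 (0.60) reversed were then more like A01 than C01 was. The rank correlation went the other way, at 0.15 with C01 reversed. Without the near-empty bins, a choice made after seeing the data, r was 0.39 as assembled (17 bins), the highest of A01 with any C chromosome, and A05 was then more like C01, with 0.42. Reversed and without them it was -0.04 (18 bins). With each arm divided into 10 bins on its side of the sparse stretch, which lines up the troughs, r was 0.32 as assembled and -0.04 reversed, both over 20 arm bins. In that division the right arms had 0.44 and the left arms 0.07, each over 10 bins. Both profiles ended low, with 50.6 and 52.3 per Mb in the last 2 bins of A01 and 63.0 and 27.4 per Mb in those of C01.

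**Figure D5:**
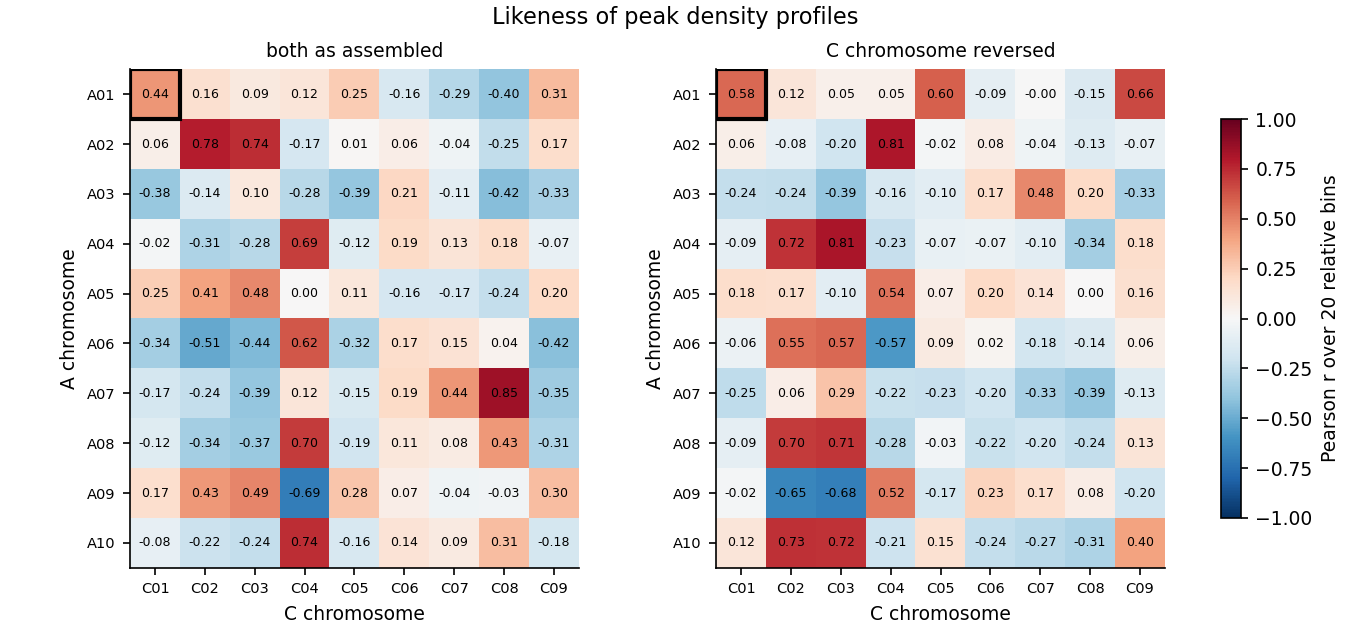
Pearson's r between the peak counts of each A chromosome (rows) and each C chromosome (columns) in 20 relative bins, with both as assembled (left) and with the C chromosome reversed (right). The framed cell is A01 with C01, at 0.44 as assembled and 0.58 reversed.

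By value, strong peaks and peak traits showed less likeness between the homoeologues than density did. For strong peaks alone r was 0.12 as assembled and 0.14 with C01 reversed, on 191 and 388 peaks over 20 bins. The fullest bins for strong peaks were from 10 to 15% on A01, with 9.41 per Mb, and from 35 to 40% and from 60 to 65% on C01, with 11.9 per Mb in each. Over the 17 bins with at least 20 peaks on both, the median fold of A01 and C01 had an r of -0.20 and the median width -0.39. Within each chromosome strong peaks followed the density of all peaks, with r of 0.75 on A01 and 0.78 on C01 over 20 bins, which share these peaks and include the troughs. The share of strong peaks was 9.53% in the ends (95% Wilson interval 7.11 to 12.7%) against 12.1% in the middle (8.39 to 17.1%) on A01 and 9.62% (7.63 to 12.1%) against 11.7% (8.84 to 15.5%) on C01, and in both cases the intervals overlap.

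A check on how the rows were made touched both homoeologues alike. A line of the peak caller carries a whole-number score and at most 6 significant digits, and a row with a fractional score or more digits was read as a mean over several lines. This sign was present in 64.3% of A01 rows (95% Wilson interval 62.2 to 66.3%) and 67.0% of C01 rows (65.4 to 68.6%), against 66.6% of the whole list. Of the 10 strongest peaks it was present in all on A01 and in 9 on C01. At the ends it was present in 61.2% of A01 rows and 62.8% of C01 rows, and in the middle in 72.1% and 68.9%. Its part in the differences in strength between zones was not tested.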

How the data were processed

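The analysis used the authors' peak list for the whole series, deposited with 7 columns, no header and no value per library. The submitters' processing notes name MACS2, HOMER, Bowtie2, fastp and SAMtools, with versions, parameters and the way the replicates were combined not given in the sources used here. Per the deposited sequence names the build is Westar v0. By column order the deposited values per peak are a start and end, a score that follows the -log10 q, a fold (a ratio to local background), a -log10 p and a -log10 q. Starts were taken as counted from 0 and are printed from 1. Read depth is unknown.

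From these were computed, with Python 3.11.15, numpy 2.4.6, pandas 2.3.3 and scipy 1.17.1, peak counts by midpoint in 20 relative bins, 1 Mb bins and 100 kb windows, edge-to-edge intervals, Wilson, exact binomial and order-statistic 95% intervals, and correlations over bins. Functions were tested on simulated data. No test between libraries or chromosomes was made, as 1 list has no replicates. Named items are the 10 strongest and 5 widest peaks, the 5 longest intervals and the 3 fullest and emptiest 1 Mb bins per chromosome; bins tied for the last place are named too. Members, limits and lists were chosen with earlier results of these data known. Peaks on other chromosomes served for comparison, and sequence and genes were not analysed here.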

Additional observations from a re-analysis of the deposited data

How the results depend on the processing

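Of 46 alternatives to the results on density, strength, ends, intervals and likeness, 34 left the value within its 95% counting interval (for r within 0.1, for the longest interval within 1.5-fold), and 12 moved it further. The ratio of A01 to C01 in density, 1.02 with an interval that includes 1, lay below 1 in 3 of its alternatives, at 0.943 to 0.978, again with 1 inside each interval. With peaks of -log10 q of at least 10 only, that ratio was 0.943, r was 0.23 and the longest peak-free interval of C01 was 4.80 Mb, because the lone peak in its sparse stretch then dropped out. With averaged rows only, r was 0.27. With C01 reversed it was 0.58, with strong peaks only 0.12 and in arm bins 0.32. The ratio of ends to middle on C01 was 3.04 with the outer 5% and central 10%, and with the outer 20% and central 40% it was 1.41 on A01 and 1.32 on C01. With the middle taken without the sparse stretch it was 1.01 on A01 and 1.09 on C01. The strong peak ratio stayed between 0.778 and 0.820 in all its alternatives, but not all of these could move it freely. The limit on -log10 q left it at 0.804, as no strong peak of A01 or C01 dropped out. The sparse stretches hold no strong peak, so leaving them out changed only the lengths. No paired analysis was possible because the list holds no value per library, and leaving out a library could not be done for the same reason.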
